A study of Mus musculus and Rattus norvegicus with 32 samples.

Results

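Heat shock proteins and their DnaJ co-chaperones were followed in 4 RNA sequencing comparisons of the Mettl5 study. The members were all genes whose symbol starts with Hspa, Hspb, Hspd, Hspe, Hsph or Hsp90, or with Dnaja, Dnajb or Dnajc, followed by a number, apart from those named as pseudogenes. This gave 73 of the 55487 genes in each of the 3 mouse heart tables and 71 of the 32883 genes in the rat cardiomyocyte table, where Hspa1a, among others, had no row. They were sorted by family into HSP110, HSP90, HSP70, small heat shock proteins, the mitochondrial chaperonin, DNAJA, DNAJB and DNAJC, and by compartment into cytosol and nucleus, endoplasmic reticulum (ER), mitochondria and vesicles. The family was read from the symbol alone, so every Hspb gene, Hspb11 included, was counted as a small heat shock protein. Enough reads for a test were found for 64 members in each mouse data set and for 66 in the rat. The 9 mouse members left out were Dnajb3, Dnajb7, Dnajb8, Dnajb13, Dnajc5b, Dnajc5g, Dnajc6, Dnajc22 and Hspb9, with at most 19 counts in a library, and the 5 rat members left out were Dnajb7, Dnajb8, Dnajc5b, Dnajc5g and Hspb9, with at most 3.

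Each comparison had 4 libraries per group. Hearts of 1-month-old Mettl5-KO mice, which lack the gene in the whole body, were set against control littermates (Ctrl). Hearts of 3-month-old Mettl5-cKO mice, in which Myh6-Cre deletes floxed exons 2 to 4 in cardiomyocytes and the other cells of the heart keep the gene, were set against Ctrl. The same genotypes were compared 4 weeks after transverse aortic constriction (TAC), a pressure overload, and the labels give 3 months as their age too. The name 3-month hearts is used below for those without TAC. All mice were C57BL/6, and the 3-month cKO samples carry Mettl5-KO in their genotype label. Neonatal rat ventricular cardiomyocytes (NRVMs), isolated from 2-day-old Sprague Dawley pups and pre-plated to remove fibroblasts, received adenovirus with human METTL5 (AdMettl5) or GFP (AdGFP), and both groups then received 20 µM phenylephrine (PE) for 24 h. METTL5 is the enzyme that places an m6A mark on ribosomal RNA. No untransduced or PE-free NRVMs were analysed here.

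Library totals were 19899033 to 21804907 counts in the hearts, 17344430 to 18085339 with AdGFP and 14324700 to 14642431 with AdMettl5. The deleted gene was read first. Mettl5 did not separate the genotypes in the hearts when the whole gene was counted, with log2 fold changes of 0.22 at 1 month, -0.18 at 3 months and -0.04 after TAC (Benjamini-Hochberg adjusted p = 0.973, 0.884 and 0.874 in the quasi-likelihood test of edgeR), so the genotypes rest on the labels. A count over the whole gene does not read its exons apart and can miss the loss of some of them. In NRVMs the rat Mettl5 gene rose by 0.32, which does not measure the human transgene. Levels are given as CPM, the usual counts relative to library size, with library sizes scaled by edgeR's TMM method. Summed markers of cardiomyocytes lay between 15959 and 31217 CPM in the heart libraries. In the AdGFP NRVMs summed fibroblast markers were also high, at 11501 to 12107 CPM, against 14226 to 16254 CPM for cardiomyocyte markers. Among the 1-month libraries, Ctrl library 1 stood apart in its TMM scaling factor (1.25, and 0.796 to 1.09 in the others). Among the Mettl5-cKO TAC libraries, library 4 had a factor of 0.947, against 1.05 to 1.15 in the others and 0.938 to 0.967 in Ctrl TAC.

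HSP70 proteins bind short hydrophobic stretches of unfolded proteins in a cycle driven by ATP. DnaJ proteins bring them clients and start the hydrolysis of ATP through their J domain, and HSP110 proteins release the spent nucleotide. HSP90 acts later, on nearly folded clients such as kinases and steroid receptors, while small heat shock proteins hold unfolded proteins without ATP and are abundant in muscle, where they protect the sarcomere. The transcription factor HSF1 induces many of these genes under heat or proteotoxic stress by binding repeats of the unit GAA in alternating orientation. The adult heart is rich in small heat shock proteins, among them Hspb6, Hspb7 and Hspb1.

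The upstream sequence of the members was read because the genes that varied most between libraries of a group, described next, include the classic HSF1 targets. The windows are on GRCm38.p6 from RefSeq, each written 5′ to 3′ on the strand of the gene. Capitals mark the letters GAANNTTC or TTCNNGAA, 2 inverted GAA units, which read the same on both strands and overlap where 3 units abut. Hspa1a (chr17:34972157-34972406, minus strand) and Hspa1b (chr17:34959239-34959488, minus strand) are shown with the 250 bases before their start sites, since they make the inducible HSP70 and differ at only 3 of these bases (98.8% identical).
Hspa1a: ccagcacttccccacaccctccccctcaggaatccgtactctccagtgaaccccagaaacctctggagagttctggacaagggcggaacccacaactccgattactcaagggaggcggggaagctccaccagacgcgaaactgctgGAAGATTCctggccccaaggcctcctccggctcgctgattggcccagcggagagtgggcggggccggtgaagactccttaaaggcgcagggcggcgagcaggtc
Hspa1b: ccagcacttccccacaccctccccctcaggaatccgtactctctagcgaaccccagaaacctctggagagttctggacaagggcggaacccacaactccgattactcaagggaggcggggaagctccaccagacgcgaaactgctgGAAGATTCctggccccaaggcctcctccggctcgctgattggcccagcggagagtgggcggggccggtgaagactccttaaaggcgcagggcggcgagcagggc
The next windows hold 30 bases around the match of 6 members named in the results and shown because they hold a match, in Hsph1 (chr5:149636351-149636380, minus), Dnaja1 (chr4:40722333-40722362, plus), Dnajb4 (chr3:152193846-152193875, minus), Dnaja4 (chr9:54699458-54699487, plus), Dnajb6 (chr5:29735843-29735872, plus) and Hspe1 (chr1:55088053-55088082, plus). Of the starts listed for a gene, number 2 was used for Dnajb4, Dnaja4 and Dnajb6 and number 1 for the others. Dnajb4 held 1 match over 2 starts and Dnaja1 1 over 3. Annotated exons cover 26 of these 30 bases in Hsph1 and all 30 in Dnaja1, Dnajb6 and Hspe1.
Hsph1: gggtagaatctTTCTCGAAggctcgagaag
Dnaja1: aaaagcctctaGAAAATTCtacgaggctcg
Dnajb4: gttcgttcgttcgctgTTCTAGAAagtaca
Dnaja4: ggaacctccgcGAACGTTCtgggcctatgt
Dnajb6: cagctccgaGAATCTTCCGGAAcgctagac
Hspe1: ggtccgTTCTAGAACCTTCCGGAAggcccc
Hspb7 (chr4:141420679-141420778, plus strand), the member with the highest level per kilobase of exon in the Ctrl hearts at 3 months and after TAC, is shown by the 100 bases before its start and had no match in its 250 bases.
Hspb7: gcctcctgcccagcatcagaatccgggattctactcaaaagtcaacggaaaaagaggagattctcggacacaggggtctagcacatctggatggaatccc
Of the 58 members with a promoter in the table, 14 (24.1%) held a match in the 250 bases upstream, against 3932 of 27025 genes (14.5%). A run of 3 abutting units stood in 3 members (5.17%), Hspd1, Hspe1 and Dnajb6, against 139 of all genes (0.514%). The 14 members were Dnaja1, Dnaja4, Dnajb4, Dnajb6, Dnajc10, Dnajc27, Hspa1a, Hspa1b, Hspb1, Hspb3, Hspb6, Hspd1, Hspe1 and Hsph1. Of the other members called after TAC, Hspa4, Hspa12a, Hspa12b and Dnajc15 held no match, and Hspa13 had no promoter listed. Dnajb1, ranked 3 among the members in spread between libraries at 3 months and after TAC, held no match over 2 starts, and Hsp90aa1 had no promoter listed. Hspd1 and Hspe1 are neighbours read in opposite directions and share the same match. A match describes the letters only, and the binding of HSF1 was not measured.

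Hspa1a and Hspa1b, the genes of inducible HSP70, differed between hearts of one group by more than nearly all genes. At 1 month, the standard deviation (SD) of log2 CPM within groups was 1.29 for Hspa1b, 1.21 for Hspa1a and 1.22 for Hsph1, the HSP110 protein that releases its nucleotide. These values lay at the percentiles 98.2, 97.9 and 98.0 of all tested genes, while the median SD of the members, 0.217, was below that of all genes, 0.240. At 3 months Hspa1b (SD 2.05) and Hspa1a (1.95) stood at percentile 99.7, followed by Dnajb1 at 0.78 and Dnaja1 at 0.68, the J proteins that serve HSP70 in the cytosol. After TAC the SD was 1.00 for Hspa1b and 0.97 for Hspa1a, and the median of the members was 0.155, against 0.184 in all genes. Hsph1 stood lower in the later hearts, at percentile 93.4 at 3 months and 71.8 after TAC, and Hsp90aa1, the inducible HSP90, at 83.4, 83.0 and 66.5 at 1 month, 3 months and after TAC. In NRVMs the widest spreads of members were 0.39 for Dnajc24 and 0.37 for Dnajc28.

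Hspa1a had 27.8, 4.77, 2.64 and 71.1 CPM in the 4 Ctrl hearts at 3 months and 3.62, 2.16, 9.71 and 31.5 in the 4 Mettl5-cKO hearts. Its log2 fold change between the genotypes was -1.18 with a standard error of 1.03 (adjusted p = 0.943 in edgeR, Benjamini-Hochberg). Ctrl library 4 was the highest and Ctrl library 3 among the lowest, so the span inside one genotype was wider than the difference between genotypes. Hspa1b moved with it, at 27.3, 3.34, 2.26 and 71.3 CPM in Ctrl and 3.03, 1.87, 7.73 and 26.9 in Mettl5-cKO. The transcripts of these neighbours share 1716 of their 50-base stretches (58.8% of those of Hspa1a and 62.3% of those of Hspa1b), so how reads were split between them is uncertain. Hsph1 was at 65.8, 43.3, 23.6 and 82.8 CPM in the same Ctrl hearts and at 32.6, 26.8, 35.4 and 30.6 in the Mettl5-cKO hearts. Ctrl libraries 1 and 4 were again the high ones.

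At 1 month, Hspa1a was at 2.35, 2.00, 15.6 and 3.93 CPM in Ctrl and 2.06, 2.19, 5.83 and 9.92 in Mettl5-KO. Hsph1 had 4.82, 12.7, 29.9 and 25.6 CPM in Ctrl and 5.54, 8.41, 24.9 and 35.3 in Mettl5-KO. Libraries 1 and 2 of both groups were low in both genes and libraries 3 and 4 higher, with Ctrl library 4 only slightly so in Hspa1a. Dnaja1 was at 15.5, 27.1, 58.9 and 39.4 CPM in Ctrl and 21.7, 25.5, 39.9 and 52.6 in Mettl5-KO, with the same libraries low. After TAC, Hspa1a was at 3.37, 13.6, 21.5 and 7.71 CPM in Ctrl and 8.81, 8.66, 6.71 and 22.7 in Mettl5-cKO, and the groups overlapped for each of these genes. No label gives the hour, the order or the manner of tissue collection, and what sets these libraries apart was not tested.

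**Figure D1:**
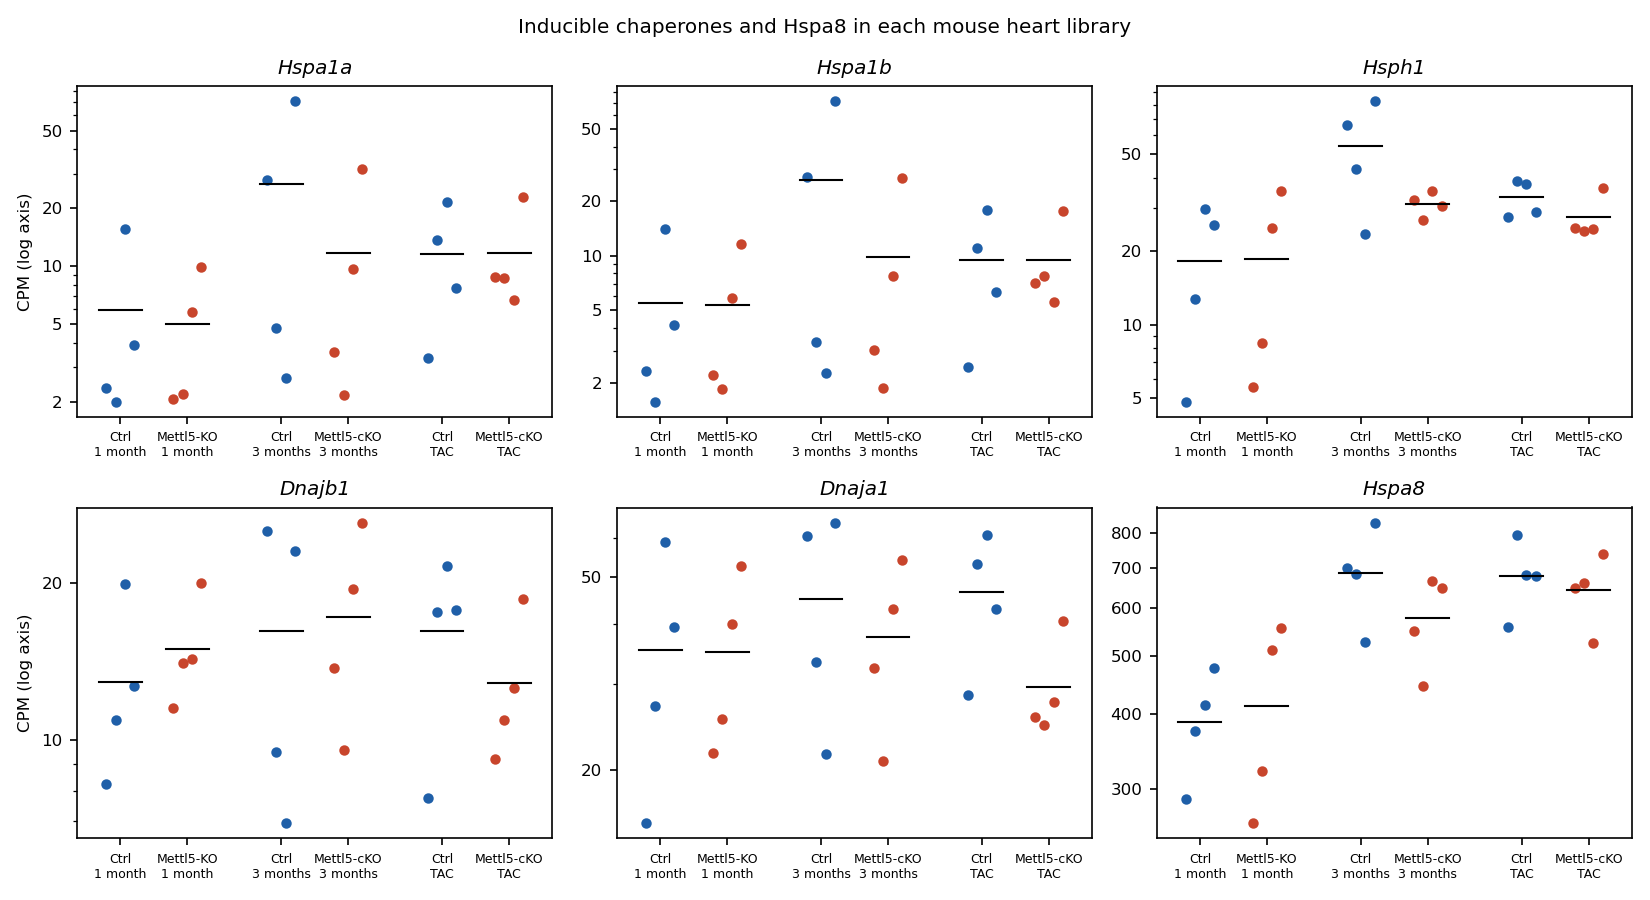
Level of 5 inducible members and of Hspa8 in every heart library, in CPM on a log axis, with control libraries in blue and Mettl5-KO or Mettl5-cKO libraries in red, and a line at the mean of each group of 4. Hspa1a runs from 2.64 to 71.1 CPM inside the 3-month Ctrl group, wider than the gap between the genotypes.

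In the 1-month hearts, no member was called higher or lower in Mettl5-KO at an adjusted p under 0.05 in edgeR's quasi-likelihood test, and 1 member each way was under 0.05 without adjustment. Among all 16329 genes tested, 0.00% were called higher and 0.00612% lower, and 747 were under 0.05 without adjustment. The log2 fold changes of the members were split into 34 above and 30 below 0, with a median of 0.01. The summed level of all members was 4321 ± 290 CPM in Ctrl and 4350 ± 852 in Mettl5-KO (SD, n = 4), a difference smaller than either SD.

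The groups did not overlap for 1 member in the higher direction and 2 in the lower, against 1.52% and 1.49% of all genes. Dnajc2, a J protein bound to the ribosome, was at 16.7 to 23.6 CPM in the 4 Ctrl hearts and 14.8 to 15.6 in the 4 Mettl5-KO hearts. The 4 Mettl5-KO hearts lay close together and below all Ctrl hearts, with a log2 fold change of -0.40 (SE 0.12, adjusted p = 0.973 from edgeR). Hspa13, an HSP70-like protein of the ER, was at 3.92, 5.56, 5.86 and 5.86 CPM in Ctrl and 6.59, 6.72, 6.18 and 7.58 in Mettl5-KO, a log2 fold change of 0.36. Hspa12b, an atypical HSP70 of endothelial cells, had 37.0, 38.7, 42.5 and 49.4 CPM in Ctrl and 35.7, 36.3, 35.8 and 36.5 in Mettl5-KO. Its difference of -0.22 did not pass the test, nor did those of Dnajc1 (-0.39) and of the mitochondrial HSP70 Hspa9 (0.26).

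Levels between genes were compared per kilobase of exon. In the 1-month Ctrl hearts, Hspb6 was at 261 ± 77.9 CPM per kb, Hspb7 at 250 ± 47.1 and Hsp90ab1, the constitutive HSP90, at 204 ± 31.0 (SD, n = 4), so these 3 did not differ beyond their spread. Hspb8 followed at 94.9 CPM per kb, Hspb1 at 91.5 and Hspa8, the constitutive HSP70, at 90.3. At 3 months Hspb7 led the Ctrl hearts at 586 ± 57.2 CPM per kb, ahead of Hspb6 at 317 ± 20.4 and Hsp90ab1 at 282 ± 44.0. After TAC the order in Ctrl was the same, at 751 ± 87.7, 463 ± 79.6 and 264 ± 17.8 CPM per kb. The ages and the operation were sequenced in separate tables, so no test was made between them.

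**Figure D2:**
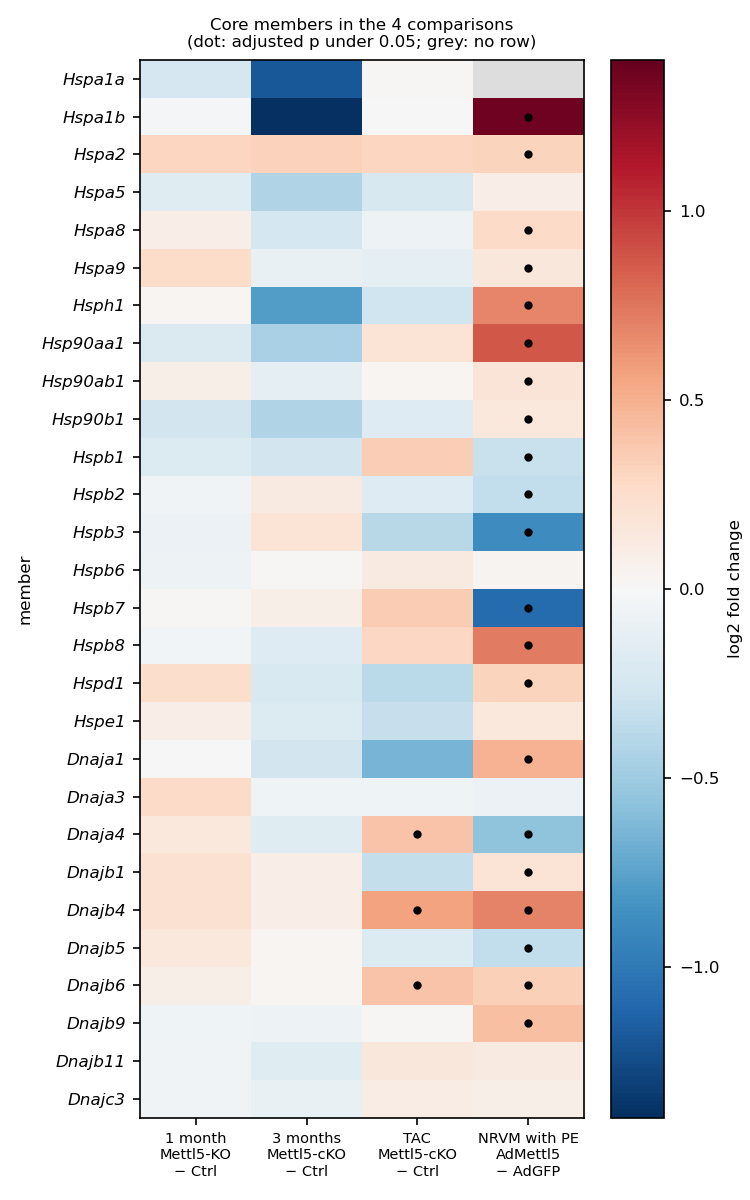
Log2 fold change of 28 members (vertical axis) in the 4 comparisons (horizontal axis), as colour from blue (lower than control) to red (higher), with a dot where the adjusted p was under 0.05 and grey for Hspa1a in the rat. The columns at 1 month and 3 months hold no dot, the TAC column holds dots for Dnaja4, Dnajb4 and Dnajb6, and the deepest blue is that of Hspa1b at 3 months, the member with the widest spread between hearts.

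In the 3-month hearts, no member was called in either direction in Mettl5-cKO, while 2 higher and 4 lower members were under 0.05 without adjustment. Among all 16391 genes, 0.0488% were called higher and 0.0244% lower, and 1155 were under 0.05 without adjustment. The median log2 fold change of the members was -0.07, with 24 values above and 40 below 0. Of the 11 HSP70 members, 9 had values below 0 (median -0.25), and the family summed to 1541 ± 280 CPM in Ctrl and 1279 ± 118 in Mettl5-cKO (SD, n = 4). All 3 HSP90 members had values below 0, and summed to 1176 ± 203 and 1020 ± 75.6 CPM. The ranges of Ctrl and Mettl5-cKO overlapped in both sums.

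Of the 5 members with the smallest p-values at 3 months, 3 belong to the ER. Hspa5, the HSP70 of the ER known as BiP, was at 301, 362, 248 and 402 CPM in Ctrl and 270, 240, 257 and 212 in Mettl5-cKO, a log2 fold change of -0.42 (SE 0.15, adjusted p = 0.568 from edgeR). Hsp90b1, the HSP90 of the ER, was at 196, 251, 188 and 302 CPM in Ctrl and 191, 184, 164 and 162 in Mettl5-cKO, also -0.42 (adjusted p = 0.587). In both genes Ctrl libraries 2 and 4 were high, and Ctrl library 3 lay among the Mettl5-cKO hearts. Their J protein Dnajb11 had a difference of -0.17, and Dnajb9 and Dnajc3 had -0.07 and -0.10. Dnajc10, the third ER member among the 5, had a value above 0 and is given below. The summed ER members were at 810 ± 131 CPM in Ctrl and 670 ± 50.1 in Mettl5-cKO, with ranges that overlapped (661 to 968 and 611 to 731). Of the 14 ER members tested 7 had values above 0 and 7 below, with a median of 0.00.

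Other members stood apart without passing the test. The groups did not overlap for 2 members in each direction, against 2.19% of all genes higher and 2.04% lower. Dnajc9, a J protein that handles histones, was at 6.48, 6.54, 5.28 and 5.60 CPM in Ctrl and 7.33, 6.79, 8.18 and 7.52 in Mettl5-cKO, and Dnajc10, a reductase of the ER, at 21.2, 18.1, 19.9 and 18.8 against 22.8, 22.5, 22.3 and 23.6. Each Mettl5-cKO heart was above each Ctrl heart, by 0.32 and 0.22 on the log2 scale. Dnajc2 was at 15.6 to 16.9 CPM in the 4 Ctrl hearts and 14.2 to 14.8 in the 4 Mettl5-cKO hearts, with a log2 fold change of -0.16 (adjusted p = 0.740), and the other member in this direction was Dnajc21. After TAC the value of Dnajc2 was on the other side of 0, at 16.9 to 18.1 CPM in Ctrl and 15.3 to 25.5 in Mettl5-cKO (0.23, adjusted p = 0.303 from edgeR). Among the fits lacking 1 library, Dnajc2 was called higher only without Mettl5-cKO TAC library 4 (0.36, adjusted p = 0.0309). In that fit the calls over all genes also rose, to 1973 higher and 1926 lower. The TAC difference of Dnajc2 minus that at 3 months was 0.41 (adjusted p = 0.349). Hspa12b had a value of -0.41 (adjusted p = 0.642 from edgeR). No cell type marker was called at 3 months, but summed endothelial markers were at 483 to 736 CPM in Ctrl and 383 to 575 in Mettl5-cKO, fibroblast markers at 416 to 562 and 513 to 758, and macrophage markers at 47.5 to 67.7 and 66.0 to 83.5. Their part in these values was not tested. Hspb7 was at 1673, 1533, 1463 and 1820 CPM in Ctrl and 1558, 1920, 1995 and 1391 in Mettl5-cKO, and the summed small heat shock proteins were at 2826 ± 251 and 2872 ± 313 CPM, within the spread between hearts.

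After TAC, 5 members were called higher and 3 lower in the Mettl5-cKO hearts, out of 64 tested. In percent this is 7.81 higher and 4.69 lower, beside 6.57% and 6.10% of all 16340 genes, so the share of members called was near that of all genes. The higher members were Dnajb4, Dnaja4, Dnajb6, Hspa13 and Hspa4, and the lower ones Hspa12a, Hspa12b and Dnajc15. The median log2 fold change of the members was 0.02, with 34 values above and 30 below 0. When only the library totals were used for scaling, the median of all genes moved by 0.14, the calls were 10 higher and 3 lower, and the median of the members was 0.15. Of all 16340 genes, 2060 were then called higher and 524 lower. The groups did not overlap for 6 members higher and 3 lower, against 9.41% and 9.16% of all genes.

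The 3 higher J proteins belong to the cytosol. Dnajb4, a partner of HSP70 close to Dnajb1, was at 77.1, 78.6, 54.3 and 65.5 CPM in Ctrl TAC and 98.8, 110, 102 and 96.9 in Mettl5-cKO TAC. Its log2 fold change was 0.56 (SE 0.12, adjusted p = 0.0184 in edgeR, Benjamini-Hochberg), with all Mettl5-cKO hearts above all Ctrl hearts. Dnaja4, a farnesylated partner of HSP70, was at 83.0, 85.3, 79.9 and 77.9 CPM in Ctrl TAC and 120, 116, 97.8 and 96.3 in Mettl5-cKO TAC, a difference of 0.40 (SE 0.09, adjusted p = 0.0237). Dnajb6, which keeps proteins from aggregating, was at 26.1, 25.5, 25.3 and 25.1 CPM in Ctrl TAC and 38.3, 34.5, 34.0 and 27.3 in Mettl5-cKO TAC (0.40, SE 0.10, adjusted p = 0.0340). Its Ctrl hearts lay within about 1 CPM of each other, and Mettl5-cKO library 4 was nearest to them. Exons of Dnaja4 overlap Wdr61 on the other strand over 44.1% of their length, and Wdr61 itself had 0.23 (adjusted p = 0.100), while the strandedness of the counting is not given in the sources used here. Dnajb1, the best known partner of inducible HSP70, was at 7.74, 17.6, 21.5 and 17.7 CPM in Ctrl TAC and 9.21, 10.9, 12.6 and 18.6 in Mettl5-cKO TAC, and was not called.

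Hspa13 was at 7.88, 8.22, 7.60 and 7.08 CPM in Ctrl TAC and 11.1, 10.7, 10.5 and 8.84 in Mettl5-cKO TAC, a log2 fold change of 0.42 (SE 0.10, adjusted p = 0.0256 from edgeR). Hspa4, an HSP110 protein, was at 84.1, 83.8, 69.5 and 79.2 CPM in Ctrl TAC and 107, 108, 108 and 84.0 in Mettl5-cKO TAC (0.36, SE 0.10, adjusted p = 0.0473). Mettl5-cKO library 4 of Hspa4 was the heart that reached into the Ctrl range. In Hspa12a, an atypical HSP70, the Ctrl TAC hearts had 13.3, 14.2, 14.8 and 17.1 CPM and the Mettl5-cKO TAC hearts 8.37, 10.7, 10.3 and 9.79 (-0.60, SE 0.11, adjusted p = 0.0134). Hspa12b was at 40.3, 43.2, 53.7 and 46.0 CPM in Ctrl TAC and 25.8, 32.5, 26.9 and 39.2 in Mettl5-cKO TAC (-0.56, SE 0.14, adjusted p = 0.0351). Dnajc15, a J protein of the mitochondrial inner membrane, was at 58.3, 56.1, 54.8 and 57.3 CPM in Ctrl TAC and 42.4, 39.7, 36.4 and 50.5 in Mettl5-cKO TAC (-0.42, SE 0.10, adjusted p = 0.0270). All 3 lower members had every Mettl5-cKO heart below every Ctrl heart.

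Markers of other cells moved in the same hearts. Of 7 fibroblast markers 6 were called higher, with a sum of 575 to 762 CPM in Ctrl TAC and 920 to 2980 in Mettl5-cKO TAC. Of 5 endothelial markers 4 were called lower (599 to 704 CPM in Ctrl TAC and 397 to 538 in Mettl5-cKO TAC). Of 6 cardiomyocyte markers 1 was called lower (24262 to 28385 and 18000 to 23478 CPM), and of 5 macrophage markers 2 were called higher. None of the markers of these lists was at 0 in the hearts. In bulk RNA, fewer cells of a type and less RNA per cell cannot be told apart, and the part of these markers in the results was not tested.

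Most of these calls were lost when 1 library was left out, while the fold changes moved less. In 8 fits that each lacked 1 library, Hspa12a stayed called throughout (adjusted p 0.00902 to 0.0481 in edgeR). Dnajb4 stayed called in 6 and was lost without Ctrl TAC library 4 (adjusted p = 0.0626) or without Mettl5-cKO TAC library 2 (0.0611). Dnaja4 was lost without Ctrl TAC library 2, 3 or 4 or Mettl5-cKO TAC library 1 or 2, with an adjusted p of up to 0.0779. Hspa13 and Hspa12b kept the call when Ctrl TAC library 1 or Mettl5-cKO TAC library 4 was dropped and lost it in the other 6 fits, with adjusted p up to 0.0814 and 0.0933. Dnajb6, Hspa4 and Dnajc15 kept it only without Mettl5-cKO TAC library 4, with adjusted p up to 0.0969, 0.131 and 0.0876 in the other 7. Over the 8 fits the log2 fold change ran from 0.33 to 0.49 in Dnajb6, 0.32 to 0.45 in Hspa4 and -0.51 to -0.35 in Dnajc15, and all 8 members kept their sign. Without Mettl5-cKO TAC library 4, 9 members were called higher and 11 lower, and the calls over all genes rose from 1074 higher and 997 lower to 1973 and 1926. In the other 7 fits they fell to between 291 and 857 higher and between 188 and 734 lower.

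**Figure D3:**
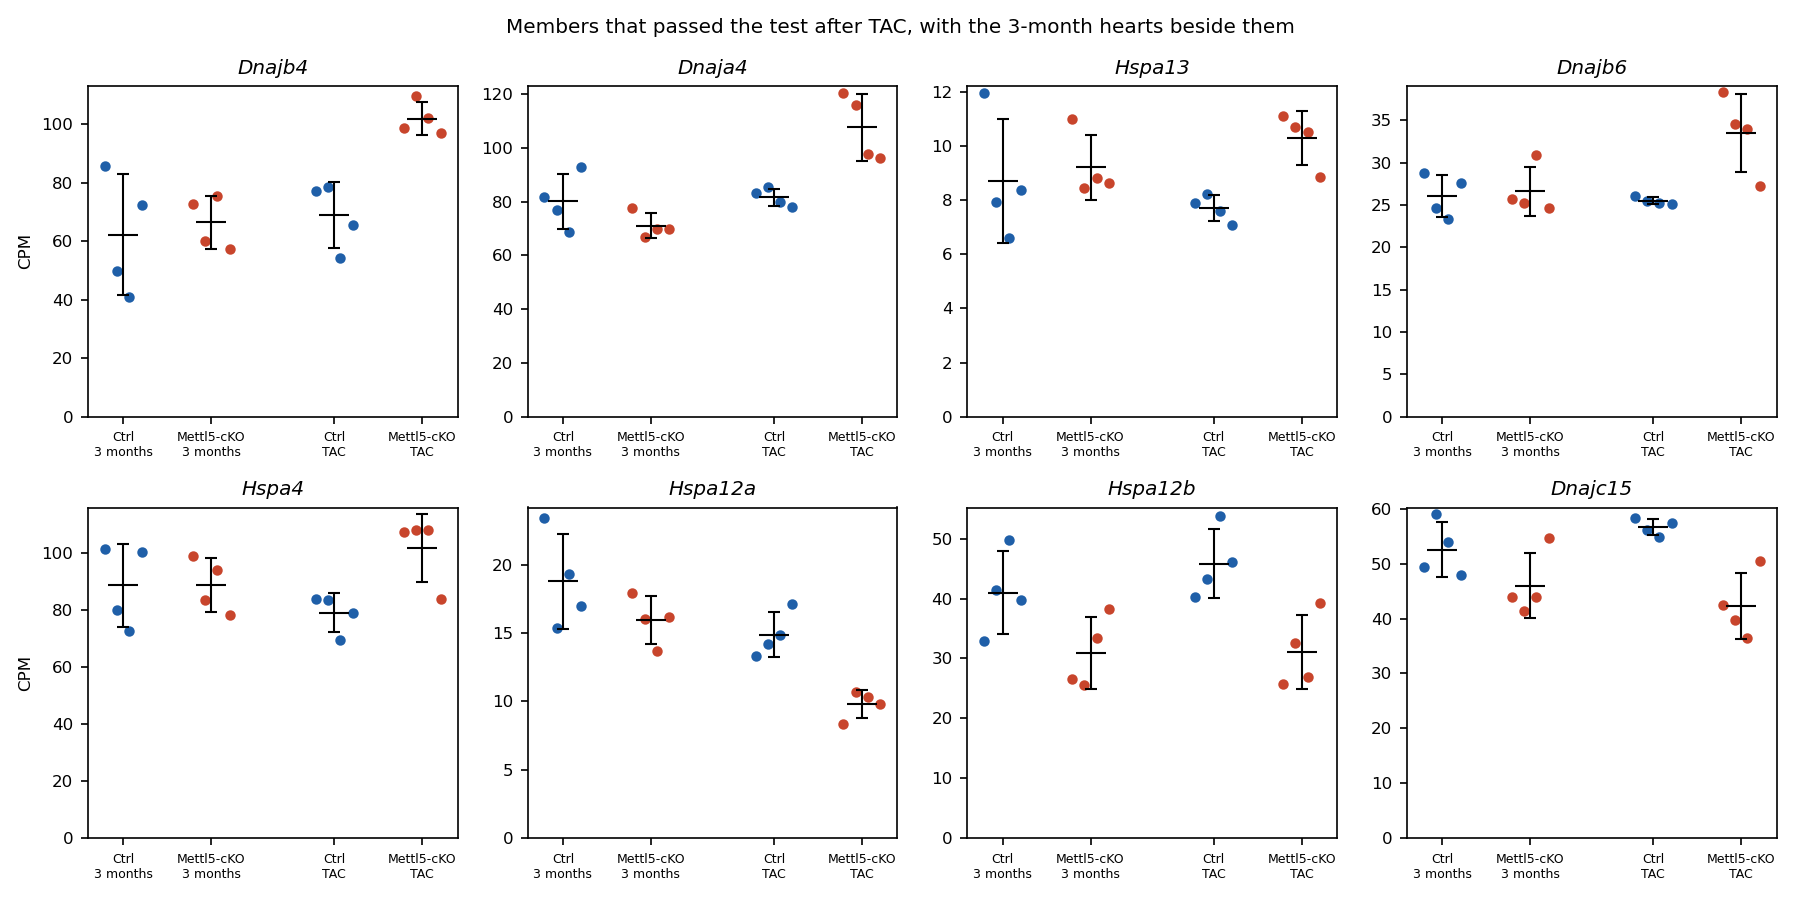
Level in CPM of the 8 members called after TAC, in every library of the 3-month and TAC hearts, with Ctrl in blue, Mettl5-cKO in red and bars for the mean ± SD of 4 libraries. Hspa4 has one red point, library 4 at 84.0 CPM, inside the Ctrl TAC range, and the other 7 members have TAC groups that do not overlap.

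The families were uneven after TAC. Small heat shock proteins had 5 of 7 values above 0 and summed to 3671 ± 384 CPM in Ctrl TAC and 4449 ± 335 in Mettl5-cKO TAC (SD, n = 4), and none was called by edgeR. Hspb8, the partner of Bag3 in the removal of damaged filaments, was at 311, 315, 298 and 303 CPM in Ctrl TAC and 416, 376, 376 and 327 in Mettl5-cKO TAC, with groups that did not overlap and a difference of 0.29 (adjusted p = 0.0536 from edgeR). Hspb7, which protects filamin in muscle, was at 2433, 2044, 1928 and 1912 CPM in Ctrl TAC and 2598, 2979, 2625 and 2418 in Mettl5-cKO TAC (0.35, adjusted p = 0.0626). Without Mettl5-cKO TAC library 4 both were called (adjusted p = 0.00585 and 0.0216), and Hspb7 also without Ctrl TAC library 1 (0.0373). DESeq2's Wald test called both (adjusted p = 0.00426 for Hspb8 and 0.00525 for Hspb7), and edgeR called Hspb8 when every library had to hold at least 10 counts (0.0495). Hspb1, at 143, 197, 200 and 155 CPM in Ctrl TAC and 225, 238, 172 and 249 in Mettl5-cKO TAC, had 0.35 (adjusted p = 0.139). Hspb3, a small heat shock protein of muscle, had -0.39 (adjusted p = 0.0759), Hspb2 had -0.18 and Hspb6 had 0.12. The exons of Hspb2 overlap those of Cryab on the other strand over 30.2% of their length.

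Of the 8 mitochondrial members, 7 had values below 0, and they summed to 694 ± 73.6 CPM in Ctrl TAC and 610 ± 36.9 in Mettl5-cKO TAC. Hspd1, the chaperonin barrel Hsp60, was at 119, 121, 88.9 and 119 CPM in Ctrl TAC and 75.7, 82.9, 92.6 and 92.9 in Mettl5-cKO TAC (-0.38, adjusted p = 0.0577 from edgeR). Its lid Hspe1, transcribed from the shared promoter, was at 46.5, 45.8, 46.6 and 42.7 CPM in Ctrl TAC and 32.9, 32.7, 34.1 and 45.8 in Mettl5-cKO TAC (-0.32, adjusted p = 0.0893). Ctrl library 3 of Hspd1 and Mettl5-cKO library 4 of Hspe1 crossed into the other group, and both genes were called lower without Mettl5-cKO TAC library 4 (adjusted p = 0.0402 and 0.00237), and Hspd1 also without Ctrl TAC library 3 (0.0334). Dnaja1 was at 28.5, 53.2, 61.0 and 42.9 CPM in Ctrl TAC and 25.6, 24.7, 27.6 and 40.5 in Mettl5-cKO TAC (-0.65, adjusted p = 0.0968), and was called lower without Ctrl TAC library 1 (0.0378) or Mettl5-cKO TAC library 4 (0.0297). Hsph1 had -0.28, Hspa5 -0.23 and Hsp90b1 -0.18, and Hsp90ab1 and Hspa8, the most abundant HSP90 and HSP70, had 0.03 and -0.08. Of the 14 ER members 11 had values above 0, with a median of 0.08. Their sum was 602 ± 29.6 CPM in Ctrl TAC and 572 ± 36.4 in Mettl5-cKO TAC (SD).

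The genotype effect after TAC was set against that at 3 months by an interaction term in a fit of the 16 libraries. No member was called, and 0.00586% of all 17070 genes were called more positive after TAC and 0.00% more negative. Without adjustment 12 members were under 0.05, but the share of all genes at that threshold was not taken, so this count has no background. The smallest p-values were those of Dnaja4, at 0.59 (SE 0.14, adjusted p = 0.133 from edgeR), and Hspb8, at 0.49 (adjusted p = 0.183), chosen after their values were seen. For Dnajb4 the difference was 0.49 (adjusted p = 0.507). Dnaja4 had -0.17 at 3 months and 0.40 after TAC. DESeq2's Wald test called Dnaja4 (adjusted p = 0.0120) and Hspb8 (adjusted p = 0.0474), and edgeR called 4 members without Mettl5-cKO TAC library 4. The shares of all genes in these fits were not taken. The calls after TAC are therefore not shown to be particular to TAC at the threshold of edgeR's test.

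In NRVMs under PE, 24 members were called higher and 18 lower with AdMettl5, out of 66 tested. In percent this is 36.4 higher and 27.3 lower, beside 27.1% and 25.7% of all 15041 genes. When only the library totals were used for scaling, the median of all genes moved by 0.13 and the calls were 35 higher and 15 lower. Of all 15041 genes, 5872 were then called higher and 2343 lower. The median log2 fold change of the members was 0.06 (38 values above and 28 below 0), or 0.19 with that scaling. The groups did not overlap for 26 members higher and 18 lower, against 25.2% and 23.1% of all genes. Dnajc6 and Dnajb13 reached the filter on low counts through the AdMettl5 libraries and had to be higher to be tested, and without them 22 were higher.

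Hspa1b, Hsp90aa1, Hsph1, Dnajb4 and Dnaja1 rose, while other members of the cytosol, Hspb1, Hspb3 and Dnaja4 among them, fell. Hspa1b, the inducible HSP70, was at 19.0, 19.1, 15.6 and 16.5 CPM with AdGFP and 48.8, 45.7, 44.3 and 41.7 with AdMettl5, a log2 fold change of 1.36 (SE 0.08, adjusted p = 6.37e-08 in edgeR, Benjamini-Hochberg). Hsp90aa1, the inducible HSP90, was at 216, 219, 197 and 194 CPM with AdGFP and 381, 376, 392 and 352 with AdMettl5 (0.86, SE 0.05, adjusted p = 1.46e-07). Hsph1 was at 83.1, 94.6, 86.1 and 84.5 CPM with AdGFP and 139, 134, 148 and 139 with AdMettl5 (0.69, adjusted p = 6.68e-07). The groups of all 3 genes were far apart, and their spread within a group was small beside the difference. Among the J proteins, Dnajb4 was at 87.7, 84.3, 79.3 and 78.5 CPM with AdGFP and 130, 132, 144 and 128 with AdMettl5 (0.70, adjusted p = 7.75e-07). Dnaja1 was at 134, 124, 129 and 123 CPM with AdGFP and 180, 175, 188 and 172 with AdMettl5 (0.49, adjusted p = 3.49e-06). Smaller differences were called for Hspa8 at 225, 237, 218 and 219 CPM against 257, 265, 266 and 292 (0.26), Hsp90ab1 at 957, 970, 979 and 972 against 1093, 1086, 1106 and 1121 (0.18), and Dnajb1, with 0.19.

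The counts by family stand beside 27.1% of all genes called higher and 25.7% lower. HSP90 had 3 of 3 members higher and summed to 1768 ± 14.6 CPM under AdGFP and 2132 ± 28.8 under AdMettl5 (SD, n = 4). HSP110 had 2 of 3 higher, Hsph1 and Hspa4l (0.82), while Hspa4 was at 354, 363, 325 and 345 CPM against 341, 319, 348 and 358 (-0.02, adjusted p = 0.723 from edgeR). HSP70 had 5 of 10 higher and 1 lower, and summed to 1636 ± 30.4 and 1831 ± 29.3 CPM. Hspa2 had 0.31, Hspa12a 0.61 and Hspa9 0.16, and Hspa12b fell by 0.46 on the log2 scale. The rat table has no row for Hspa1a, so whether reads of a second copy were counted on Hspa1b cannot be told apart here.

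Small heat shock proteins, taken by their Hspb symbols, went mostly the other way, with 5 of 7 lower and 1 higher, where 25.7% and 27.1% of all genes were called. They summed to 3249 ± 243 CPM under AdGFP and 2214 ± 122 under AdMettl5. Hspb7 was at 2070, 2043, 1750 and 1920 CPM with AdGFP and 939, 973, 865 and 905 with AdMettl5 (-1.08, SE 0.06, adjusted p = 8.43e-08 from edgeR). Hspb3 was at 114, 113, 84.3 and 85.1 CPM with AdGFP and 56.5, 56.2, 48.9 and 54.2 with AdMettl5 (-0.88, adjusted p = 2.21e-05). The fall of Hspb7 alone was nearly as large as that of the sum. Hspb1 was at 472, 418, 397 and 433 CPM against 360, 359, 330 and 336 (-0.31, adjusted p = 0.000712), Hspb2 at 181, 174, 147 and 150 against 138, 139, 122 and 117 (-0.34, adjusted p = 0.00312), and Hspb11 had -0.66. Hspb6 was at 404, 394, 344 and 396 CPM with AdGFP and 428, 416, 362 and 372 with AdMettl5, which overlap (0.04, adjusted p = 0.677). The member that rose was Hspb8, at 245, 229, 204 and 210 CPM with AdGFP and 376, 390, 391 and 310 with AdMettl5 (0.72, adjusted p = 1.3e-05). Its partner Bag3 rose by 0.23 (adjusted p = 0.00223).

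Cardiomyocyte markers fell in the same libraries. All 6 of the list were called lower, with a sum of 14226 to 16254 CPM with AdGFP and 6772 to 7421 with AdMettl5. Of 6 fibroblast markers tested 5 were called lower (11501 to 12107 and 9085 to 10015 CPM), of 4 smooth muscle markers 2 were called higher (2677 to 3393 and 3204 to 3705 CPM), of 4 endothelial markers 1 was higher and of 4 macrophage markers 2 were lower. Of the 3 erythroid markers 2 were at 0 in every NRVM library. Hspb7 and Hspb3, known from striated muscle, fell in the libraries where these markers fell, and the part of the markers in the result was not tested.

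**Figure D4:**
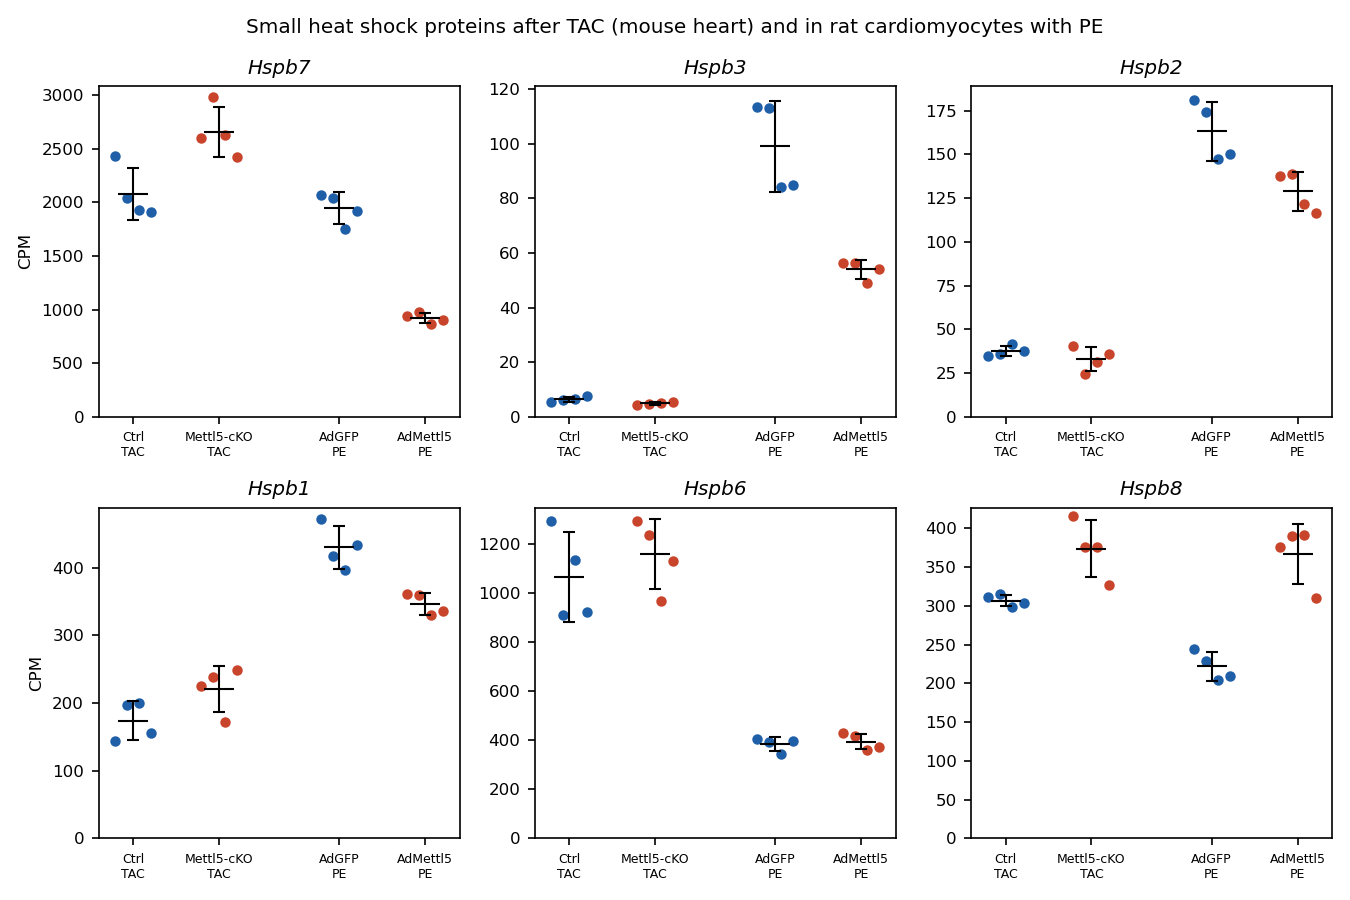
Level in CPM of 6 small heat shock proteins after TAC and in NRVMs, in every library, with control libraries in blue, Mettl5-cKO TAC or AdMettl5 in red and bars for the mean ± SD of 4 libraries. Hspb7 lies at 1750 to 2070 CPM with AdGFP and 865 to 973 with AdMettl5, while Hspb8 lies at 204 to 245 and 310 to 391.

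The J proteins were divided in NRVMs. DNAJB had 6 of 11 higher (54.5%) and 2 lower (18.2%), DNAJA had 1 of 4 each way (25%), and DNAJC had 5 of 26 higher (19.2%) and 9 lower (34.6%). Dnajb13 and Dnajc6 are counted among the higher. Over all genes 27.1% were called higher and 25.7% lower. Dnajc9 was at 44.2, 44.1, 41.0 and 41.3 CPM with AdGFP and 97.4, 101, 97.2 and 81.2 with AdMettl5 (1.14, SE 0.07, adjusted p = 1.02e-07 from edgeR). Dnajc6, the auxilin that strips clathrin from vesicles, was at only 0.233 to 0.523 CPM with AdGFP and 1.08 to 1.44 with AdMettl5, at most 22 counts, and its log2 fold change of 1.60 is given as a value only, since the filter fixed its direction. Apart from it, Dnajc9 and Hspa1b were the higher members with a log2 fold change over 1, and Hspb7 the lower one. Dnajc22 had 0.81, Dnajb9 of the ER 0.42 and Dnajb6 0.33. Dnaja4 was at 63.6, 67.8, 56.3 and 54.4 CPM with AdGFP and 41.1, 39.1, 40.1 and 43.2 with AdMettl5 (-0.56, adjusted p = 4.08e-05), so its paralog Dnaja1 rose where it fell. Dnajb5 had -0.35 and Dnajb2 -0.31.

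Among the lower DNAJC members, Dnajc4 had -0.67 (adjusted p = 1.23e-05 from edgeR), Dnajc30 of the mitochondria -0.64, Dnajc16 -0.61 and Dnajc27 -0.46. In the mouse annotation the exons of Dnajc30 overlap Bud23 on the other strand over 26.2% of their length, and rat exons were not compared. Dnajc15 and Dnajc19, J proteins at the import channel of the mitochondrial inner membrane, had -0.48 and -0.46. Of the 8 mitochondrial members 2 were higher, Hspd1 (0.31, adjusted p = 0.000138) and Hspa9, and 3 were lower, while Hspe1 had 0.15 (adjusted p = 0.161) and Dnaja3 -0.08. The mitochondrial shares were 25% higher and 37.5% lower, beside 27.1% and 25.7% of all genes. Of the 14 ER members 3 were higher (21.4%) and 2 lower (14.3%), both below the shares of all genes. Hsp90b1 was at 585, 596, 579 and 611 CPM with AdGFP and 639, 642, 671 and 667 with AdMettl5 (0.14, adjusted p = 0.0126), and Hspa5 was at 826, 824, 803 and 837 against 857, 892, 903 and 867 (0.10, adjusted p = 0.0719). Their groups did not overlap, but the differences were small. Dnajb11 and Dnajc3 had 0.13 and 0.08 and were not called. In the cytosol and nucleus 15 of 34 members were higher (44.1%) and 9 lower (26.5%, near the share of all genes).

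**Figure D5:**
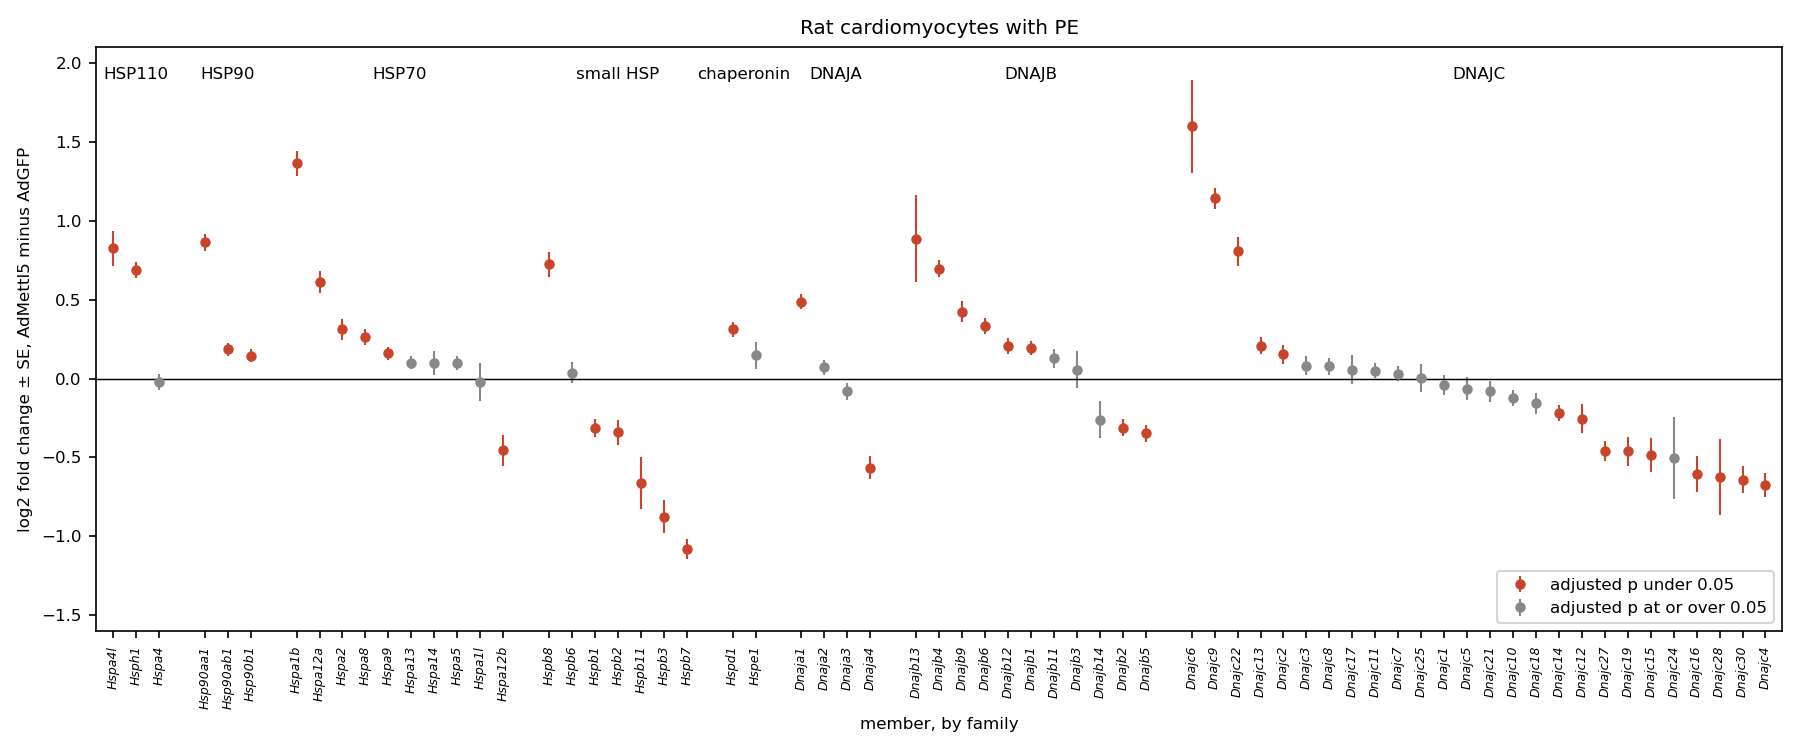
Log2 fold change between AdMettl5 and AdGFP on the vertical axis for the 66 members tested in NRVMs, ordered by family, with bars for the standard error, red where the adjusted p was under 0.05 and grey elsewhere. Hspa1b (1.36), Hsp90aa1 (0.86) and Hsph1 (0.69) lie above 0, and Hspb7 (-1.08) and Hspb3 (-0.88) below.

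Other genes of the folding machinery were read from a list of 60, of which 59 were tested in each comparison. None was called at 1 month or at 3 months. At 3 months the ER folding genes had a median log2 fold change of -0.29, against 0.00 in all genes, and Manf, a secreted ER stress factor, had -0.81 (adjusted p = 0.385 from edgeR). After TAC 5 were higher and 2 lower, where 6.57% and 6.10% of all genes were called. P4hb, the disulfide isomerase of the ER, rose from 118 ± 3.29 to 218 ± 26.5 CPM (SD, n = 4, log2 fold change 0.89, adjusted p = 0.00253), and the secreted chaperone Clu rose from 375 ± 24.0 to 1079 ± 478 CPM (1.52, adjusted p = 0.0144). These 2 stayed called with each library left out. Bag2, an exchange factor of HSP70, had 0.63, Fkbp5 of the HSP90 complex 0.77 and the TRiC subunit Cct8 0.31, while Fkbp4, also of the HSP90 complex, fell from 193 ± 5.83 to 115 ± 31.1 CPM (-0.75, adjusted p = 0.0202) and the mitochondrial disaggregase Clpb had -0.34. Bag2 was lost without Ctrl TAC library 2 or Mettl5-cKO TAC library 2 (adjusted p up to 0.0565), Fkbp5 in 4 of 8 fits (up to 0.0837) and Fkbp4 in 4 (up to 0.0668). Cct8 and Clpb were lost in 6 each (up to 0.0908 and 0.0839), with log2 fold changes of 0.28 to 0.36 and -0.39 to -0.30 over the 8 fits, 7 of which called fewer of all genes.

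In NRVMs 23 of the 59 were higher and 9 lower, where 27.1% and 25.7% of all genes were called. The co-chaperones of HSP70 and HSP90 had 12 of 19 higher and 1 lower, and the TRiC chaperonin of the cytosol 4 of 8 higher. Fkbp5 had 0.52, Cacybp 0.42, and Ahsa1, which activates HSP90, rose from 92.7 ± 2.15 to 115 ± 4.08 CPM (0.31, adjusted p = 8.06e-05 from edgeR). The TRiC subunit Cct6a had 0.29 and the mitochondrial protease Lonp1 0.49. The 1 co-chaperone that fell was Unc45b, the chaperone of muscle myosin, from 222 ± 4.72 to 115 ± 5.39 CPM (-0.94, adjusted p = 2.35e-08). Cryab, the small heat shock protein alpha B-crystallin, fell from 2097 ± 247 to 1059 ± 61.0 CPM (-0.99, adjusted p = 1.12e-06). Timm44 of the mitochondrial import motor had -0.32. Hsf1 itself had -0.10 in NRVMs (adjusted p = 0.149) and -0.17 after TAC (adjusted p = 0.349), and Hsf2 had 0.29 (adjusted p = 0.00164) and -0.05.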

How the data were processed

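RNA was sequenced from mouse hearts and rat NRVMs. The authors aligned the reads with HISAT2 2.0.4 to GRCm38 or Rnor_6.0 and made the deposited estimated counts per gene with StringTie 2.1.4, versions as in the submitters' processing notes, which also list DESeq2 1.4.5. Whether counting used strand is not given in the sources used here. Plain counts had been planned for, and the deposited estimated counts were whole numbers already, so rounding left them unchanged. Columns at 1 month matched single samples. In the other tables they matched groups, and libraries are named 1 to 4 in the order of the numbers that the columns carry.

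The 4 tables were tested separately under R 4.3.3. In edgeR 4.0.16, genes were kept by filterByExpr at a minimum count of 10 and a minimum total of 15, libraries were scaled by TMM and the quasi-likelihood test was used, with Benjamini-Hochberg adjustment over all genes tested and a threshold of 0.05. Log2 CPM used a prior count of 2. At totals of 14324700 to 21804907 counts, errors were smallest in NRVMs, with a median standard error of 0.0807 over the log2 fold changes, against 0.134 (TAC), 0.157 (3 months) and 0.175 (1 month) in the hearts. The members and lists were chosen with earlier results of these data known. Named in each comparison were 28 core members, up to 10 higher and 10 lower called members with the smallest adjusted p, those called with an absolute log2 fold change over 1, the 5 with the smallest p where fewer than 5 passed, and, from the list of other folding genes, Hsf1, Hsf2 and the 8 called with the smallest adjusted p. Members with wide spread, with groups that did not overlap or just outside the threshold, and others beyond this rule such as Bag3 and Manf, were named after their values were seen. Alternatives were DESeq2 1.42.0, its size factors in edgeR, library size alone, other filters and thresholds, a block for the replicate number in the youngest hearts and fits lacking 1 library each. Steps were tested on simulated data. No libraries were duplicates (lowest chi-square per degree of freedom 2.16). The labels do not say that each library is a separate animal or culture, so p-values measure the spread between these samples, which may be technical. Upstream sequences are of GRCm38.p6 and RefSeq. Exon lengths, exon overlaps and the compared transcripts of Hspa1a and Hspa1b are from the GENCODE mouse annotation, and rat positions were not used. Some results are not reported here. Every column of sample values was assigned. Figures used Python 3.11.15 and matplotlib 3.10.9.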

Additional observations from a re-analysis of the deposited data

Results flagged for a closer look

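In 14 of 266 groups of 4 libraries (5.26%), the highest or lowest library lay apart from the others by a share of the range above Dixon's critical value, and chance alone gives about 1 group in 20. Among the 1-month Ctrl hearts, library 3 had Hspa1a at 15.6 CPM, against 2.00 to 3.93 in the others. Library 1 of the same group had Hspb3 at 1.80 CPM (5.81 to 6.10 in the others), Dnajb6 at 20.7 (17.0 to 17.3) and Hspa13 at 3.92 (5.56 to 5.86). Mettl5-cKO library 3 at 3 months had Dnajb6 at 30.9 CPM, against 24.6 to 25.7.

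Mettl5-cKO TAC library 4 stood apart in 5 members. Its Hspa1a was at 22.7 CPM (6.71 to 8.81 in the others), Hsph1 at 36.2 (24.1 to 25.0), Hspe1 at 45.8 (32.7 to 34.1), Dnajb5 at 103 (63.7 to 69.5) and Hspa4 at 84.0 (107 to 108). Its scaling factor of 0.947 lay in the range of the Ctrl TAC libraries. Ctrl TAC library 3 had Hspd1 at 88.9 CPM (119 to 121), and Ctrl TAC library 1 had Dnajb5 at 62.1 (93.1 to 98.2). In NRVMs, AdGFP library 3 had Hspb6 at 344 CPM (394 to 404) and AdGFP library 2 had Dnaja3 at 81.7 (78.0 to 78.6).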

How the results depend on the processing

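At an unadjusted p under 0.05 the members called higher and lower were 1 and 1 at 1 month, 2 and 4 at 3 months and 10 and 9 after TAC. In the interaction 12 members were under 0.05 without adjustment and none after it, and the share of all genes was not taken there. The heart comparisons tested 64 members each. Of all genes tested, 747 of 16329 at 1 month, 1155 of 16391 at 3 months and 5062 of 16340 after TAC were under that threshold. With an absolute log2 fold change over 1 as well, 0 and 0 were called after TAC and 3 (Dnajc6 included) and 1 in NRVMs. DESeq2's Wald test called 8 higher and 5 lower of 71 members after TAC, beside 1460 and 1259 of all 30040 genes. It added Hspb7, Hspb8 and Hspa1l (higher) and Hspd1 and Dnaja1 (lower). In the interaction it called 2 members, and the share of all genes was not taken there. Without a filter on low counts 3 and 1 of 71 members were called after TAC, beside 641 and 411 of all 30075 genes. Scaling by library size alone gave 10 higher after TAC, beside 2060 of all 16340 genes. The medians were then 0.15 after TAC and 0.19 in NRVMs, where all genes shift by 0.14 and 0.13. Over the fits that left out 1 library, the members called after TAC ranged from 0 to 9 higher and 1 to 11 lower, those in NRVMs from 22 to 25 higher and 16 to 18 lower, and those in the interaction from 0 to 4. The median of the members ranged from -0.04 to 0.05 at 1 month, -0.14 to -0.02 at 3 months, -0.01 to 0.05 after TAC and 0.04 to 0.08 in NRVMs, and 0 members were called at 1 and 3 months in these fits. The cause of these changes was not tested. Among the members selected by the naming rule, no called value changed sign under these alternatives, and each one called in NRVMs kept its call with each library left out. Without Hspa1b, HSP70 summed to 1786 CPM with AdMettl5.

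A replicate block in the fit of the 1-month hearts left 0 members called higher and 0 lower, with a median of 0.03. The deviations of same-numbered libraries correlated at 0.239, 0.120, -0.107 and 0.0782, and not every library correlated best with its own number, so the numbers were not taken to pair the hearts. No paired analysis was possible for the other comparisons because in each of them the columns of at least 1 group carry no replicate number of the labels. With 4 libraries per group, differences near the median standard error were not detectable, and low members such as Dnajc6 rest on few counts.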
